A study of Homo sapiens with 24 samples.

Results

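SCaBER, a bladder cancer line of the basal/squamous (Ba/Sq) type, was transfected with the first of the study's ZBED2 siRNAs, siZBED2-1, and its transcripts were compared with those of SCaBER cells that received a control siRNA. The comparison was defined by the labels and by no measured value. It holds 4 of the 24 libraries of the series: 2 siZBED2-1 libraries and 2 siControl libraries, with replicates 1 and 2 in each group. The study depleted ZBED2 and FOXA1, alone or together, in SCaBER and in the luminal line RT112. The question behind the ZBED2 arm was whether this TF takes part in basal identity and in holding down interferon signaling. STAT2 and CD274 (PD-L1) were among the study's readouts of it, beside gene set enrichment and cell viability. All 4 libraries came from cells grown in DMEM with fetal serum and reverse transfected with Lipofectamine RNAiMAX. The control was the siRNA that the labels call siControl.2. No other gene was targeted in these cells. A single siRNA stands behind the knock-down, so that an effect of ZBED2 loss and an effect of this siRNA on other transcripts cannot be told apart. The study describes its knock-downs as short-term. Nothing says that the replicates were separate cultures beyond their label as separate experiment batches, so the p-values measure the spread between these samples.

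ZBED2 is a zinc finger TF of the BED family, whose members descend from domesticated transposases. It is found in basal keratinocytes and competes with interferon regulatory factors for their DNA elements. Basal urothelial and squamous cells carry keratins of the KRT5, KRT6 and KRT14 kind, anchor to laminin through hemidesmosomes and, on differentiating, switch on cornified envelope proteins, serpins and S100 proteins. Interferons signal through JAK kinases to STAT and IRF factors, STAT2 and IRF9 among them, which bind the interferon-stimulated response element (ISRE) in front of antiviral genes.

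Libraries were made by QuantSeq 3' sequencing, which reads each transcript next to its poly(A) tail, so counts do not scale with gene length. The libraries held 4915621 to 5457290 counts, with 15175 to 16082 genes seen and 9.73 to 10.9% of counts on the mitochondrial genome. Levels are given as CPM, a gene's counts relative to the TMM-scaled library total, with replicate 1 before replicate 2. The basal markers KRT5, KRT14, KRT6A, KRT17, CD44, CDH3 and EGFR were abundant in each library. KRT16 (29.1 and 18.4 CPM in siControl), TP63 (19.1 and 18.8) and DSG3 (19.5 and 25.2) were less abundant. The umbrella-cell genes UPK1A, UPK3A, KRT20 and SNX31 had no count, which allows up to 0.551 to 0.6 CPM for counting error alone. Other luminal genes were detected in siControl: ELF3 at 79.9 and 102 CPM, ERBB3 at 37.2 and 32.3 and PPARG at 29.7 and 27.7. GATA3 stood at 12.8 and 11.6 CPM, FOXA1 at 3.78 and 5.59 and UPK2 at 2.46 and 4.59. Markers of other cells were scarce: 6 of 10 fibroblast markers, 8 of 10 immune markers and 3 of 7 endothelial markers were at 0 in all 4 libraries. The endothelial sum was 4.87 and 7.53 CPM in siControl and 10.9 and 11.2 CPM in siZBED2-1, and the immune sum 3.12 and 2.44 against 5.23 and 5.68 CPM. The part of these few counts in the results was not tested.

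ZBED2 itself, at chr3:111592900-111595346 (GRCh38), was lower after siZBED2-1. Controls 1 and 2 held 101 and 96 ZBED2 counts against 12 and 40 after siZBED2-1, which is 19.1 ± 0.0639 CPM against 4.87 ± 3.49 CPM (SD, n = 2 each). Both siZBED2-1 libraries lay below both controls, and replicate 1 was the more deeply depleted. The log2 fold change was -1.96 (SE 0.46, adjusted p = 0.00848, edgeR quasi-likelihood test with Benjamini-Hochberg adjustment over all genes tested), a 3.88-fold lower level with a 95% interval of -2.90 to -1.01 on the log2 scale. Taken by replicate number, the differences were -2.80 and -1.34. Without siZBED2-1 replicate 1 the change was -1.37 with an adjusted p of 0.205, so the call rests on the replicate with the deeper depletion. Of the 5 BED-type genes tested, ZBED2 was the one called, and ZBED4 (34.2 and 45.3 against 43.4 and 38.2 CPM) and ZBED5 (18.9 and 33.9 against 24.8 and 20.4 CPM) overlapped between the groups.

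FOXA1, the pioneer factor of luminal cells that the study sets against ZBED2, was near the floor of these libraries. It had 20 and 28 counts in siControl and 14 and 1 in siZBED2-1 (log2 fold change -1.65, SE 1.19, adjusted p = 0.564). The siZBED2-1 libraries differed from each other, and the change ran from -0.73 to -4.49 with 1 library left out.

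Over the transcriptome, 13129 of 58721 genes passed the filter on low counts, and 610 of them, 4.65% of those tested, were called at an adjusted p under 0.05. Of these 288 were higher (2.19%) and 322 lower (2.45%) after siZBED2-1, with a median absolute log2 fold change of 0.85. At least 2-fold changes were found in 223 genes, 82 higher and 141 lower. The 2 libraries of each group did not overlap for any of the 610 called genes, as for 46.6% of all genes tested. Calls depended on abundance: with the genes in tertiles of mean level, 0.503% of the lowest tertile was called, against 3.31% of the middle and 10.1% of the highest. Counts of calls in the gene lists below are to be read beside these shares. With 1 library left out, the number called ranged from 302 (without siZBED2-1 replicate 2) through 312 (without siControl replicate 2) and 352 (without siZBED2-1 replicate 1) to 450, and 174 genes were called in each of these 4 fits.

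**Figure D1:**
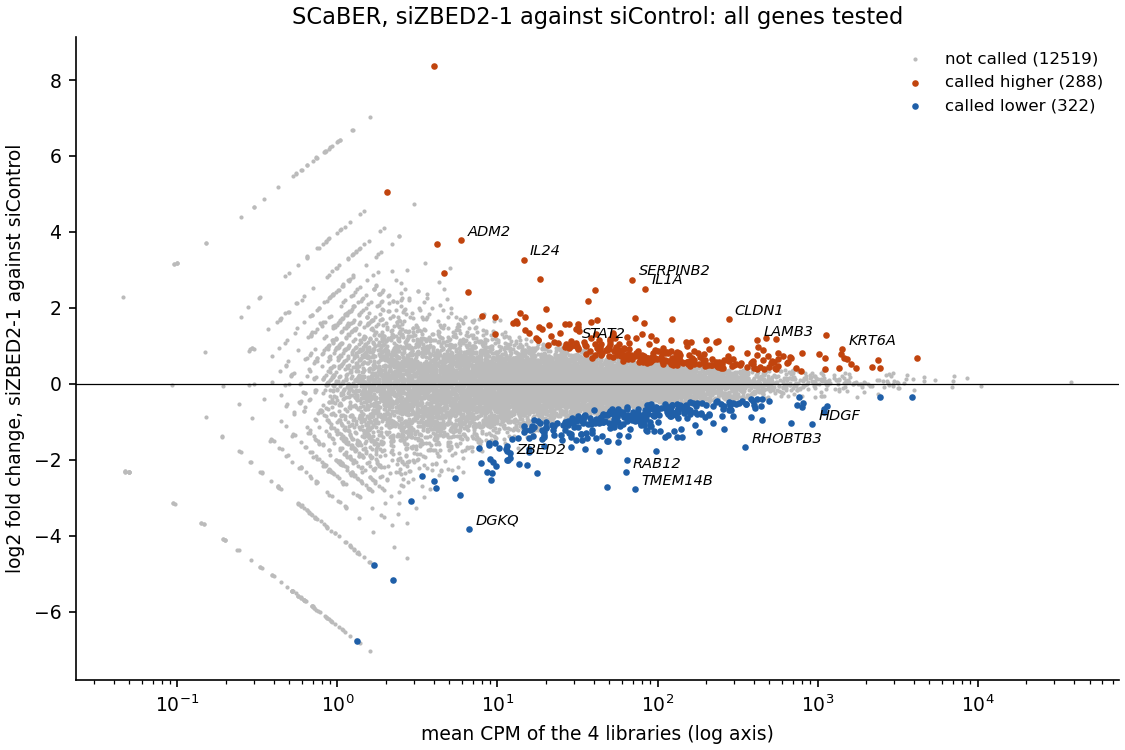
Each point is 1 of the 13129 genes tested (those without a count in these 4 libraries are not drawn), placed by its mean CPM over the 4 SCaBER libraries (x, log axis) and its log2 fold change in siZBED2-1 against siControl (y). The 288 genes called higher and the 322 called lower flank a cloud centred on a median of -0.002, and few genes under 10 CPM were called.

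Of 30 genes of basal keratins and of adhesion tested, 16 were called higher, 0 lower and 14 did not pass the test, and 29 lay above 0, with a median log2 fold change of 0.54 beside 0.00 over all genes tested. Summed over the list, the level went from 12800 and 12400 CPM in siControl to 19300 and 19700 CPM in siZBED2-1. Of the 16 calls, 12 held whichever library was left out.

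LAMB3 encodes a chain of laminin-332, the ligand to which hemidesmosomes bind. LAMB3 went from 257 and 265 CPM to 588 and 567 CPM (log2 fold change 1.15, SE 0.11, adjusted p = 1.27e-08). The siZBED2-1 libraries stood well clear of the controls. The receptor for laminin-332 is the pair of integrins ITGA6 and ITGB4. ITGA6 rose from 409 and 411 to 755 and 684 CPM (0.81, adjusted p = 1.18e-05) and ITGB4 from 122 and 119 to 203 and 235 CPM (0.86, adjusted p = 0.000217). COL17A1, the transmembrane collagen of the hemidesmosome, was among the other members called.

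The keratins moved unequally. KRT6A, a keratin of activated and squamous cells, went from 1000 and 970 CPM to 1860 and 1870 CPM (log2 fold change 0.92, SE 0.11, adjusted p = 6.41e-07). KRT14, the basal-cell keratin, went from 305 and 273 to 529 and 595 CPM (0.96, SE 0.13, adjusted p = 3.88e-06), and KRT6B from 42.7 and 49.3 to 98.4 and 132 CPM (1.32, adjusted p = 1.22e-05). These 3 keratins nearly doubled or more, with no overlap between the groups, as for every called gene. KRT5, the usual partner of KRT14, had 820 and 832 against 1050 and 881 CPM and was not called (0.23, adjusted p = 0.267), and neither was TP63, the master TF of basal cells, at 19.1 and 18.8 against 24.2 and 19.6 CPM (0.21, adjusted p = 0.857). Both of these were picked out after their values were seen. KRT6A and KRT6B, like KRT14, KRT16 and KRT17, are closely related copies whose reads the counting could split, so the share of each is uncertain.

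**Figure D2:**
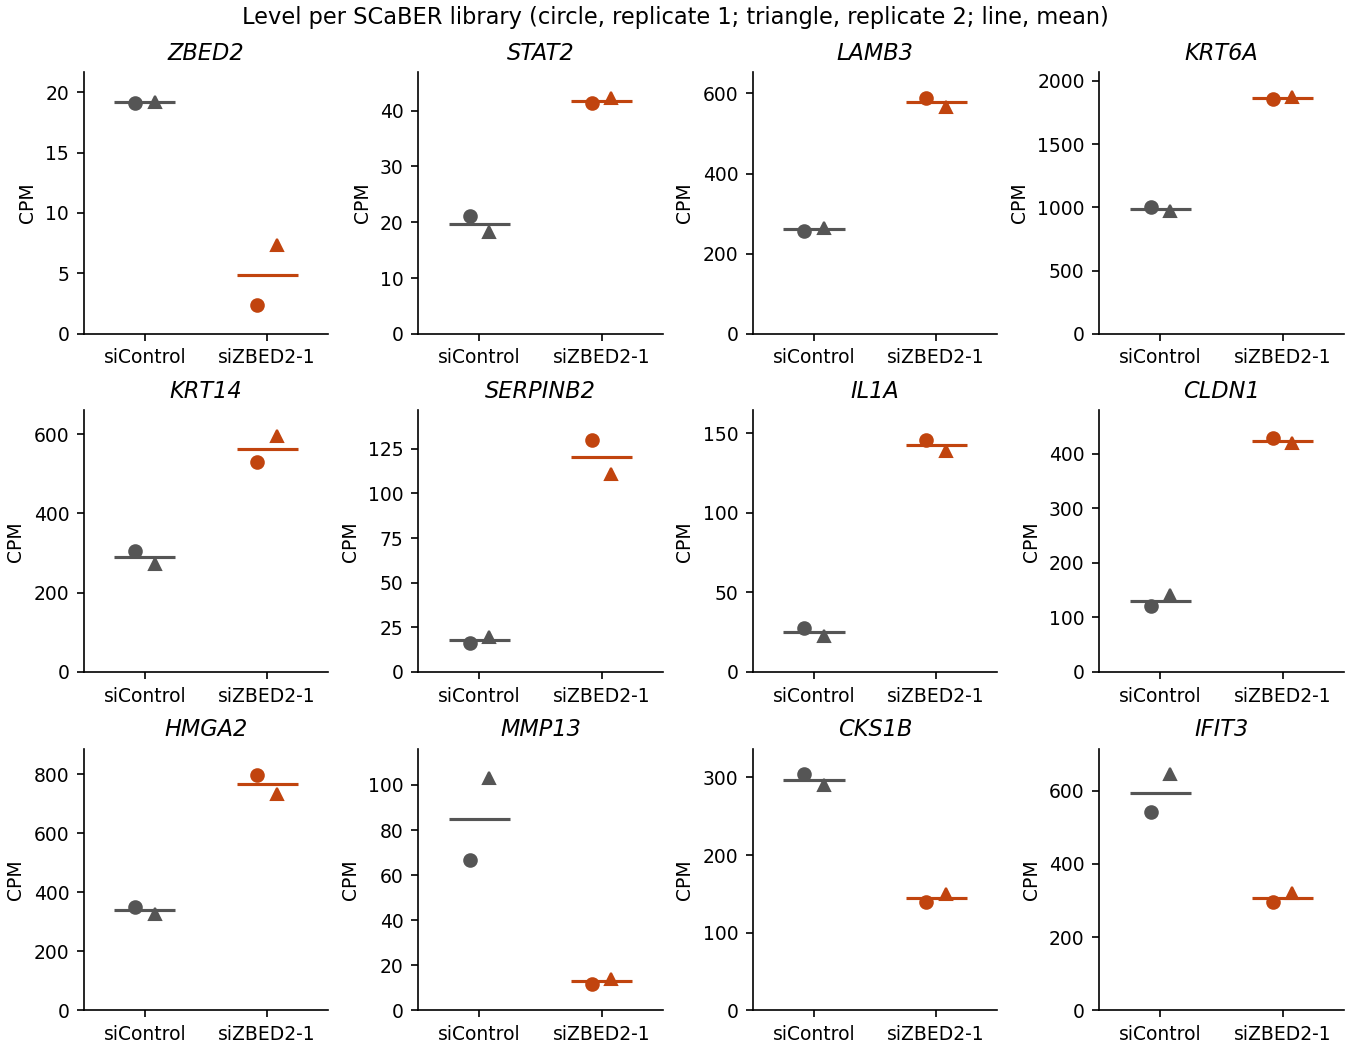
CPM (y, linear, from 0) of 12 genes in the 4 SCaBER libraries: grey, siControl; orange, siZBED2-1; circles, replicate 1; triangles, replicate 2; lines, the mean of 2. All 12 genes were called. Their groups do not overlap, as for every called gene and for 46.6% of all genes tested. ZBED2 shows the widest relative gap between siZBED2-1 replicates (2.40 and 7.34 CPM).

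Of 40 squamous differentiation genes 24 could be tested; 7 were called higher and 1 lower, and the median log2 fold change was 0.63. SERPINB2, the plasminogen activator inhibitor of keratinocytes, showed one of the steepest rises, from 16.4 and 19.6 CPM to 130 and 111 CPM (6.71-fold, log2 fold change 2.75, SE 0.23, adjusted p = 1.14e-09). Its neighbours in the serpin cluster, SERPINB3 and SERPINB4 (the squamous cell carcinoma antigens), rose from 11.7 and 13.2 to 66.8 and 71.9 CPM (2.48, adjusted p = 8.87e-05) and from 7.55 and 1.80 to 26.4 and 37.6 CPM (2.76, adjusted p = 0.00114). The last pair are close paralogs and their split is uncertain, and the SERPINB4 controls lay far apart. S100A8 and S100A9, which pair into calprotectin, rose from 12.8 and 13.8 to 68.8 and 51.0 CPM (2.17, adjusted p = 3.87e-05) and from 165 and 125 to 262 and 286 CPM (0.91, adjusted p = 0.000816). SPRR1B, a cornified envelope precursor, rose from 37 and 28.5 to 76.6 and 75.2 CPM (1.21, adjusted p = 0.000455). In the other direction, KLK10, a kallikrein protease, fell from 28.7 and 43.1 to 9.20 and 18.7 CPM (-1.36, adjusted p = 0.0124), and the envelope protein IVL was low in all libraries and not called (-0.31, adjusted p = 0.881). KLK10 and IVL were picked out after their values were seen, and 0 genes of the list were called lower without siControl replicate 2 or siZBED2-1 replicate 1.

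The promoters of SERPINB2 and SPRR1B are shown because they hold the letters of the AP-1 element, which the JUN and FOS factors of keratinocyte differentiation bind. The motif searched was TGANTCA on both strands, and capitals mark the matches. The promoters of S100A8, S100A9, SERPINB3 and SERPINB4, also called higher, hold 0 matches in the 300 bases around the start. Both stretches are the 160 bases before the RefSeq start in GRCh38.p14, on the plus strand: chr18:63887545-63887704 for SERPINB2 and chr1:153031043-153031202 for SPRR1B. A match is a description of the letters, not a site shown to be bound.
SERPINB2: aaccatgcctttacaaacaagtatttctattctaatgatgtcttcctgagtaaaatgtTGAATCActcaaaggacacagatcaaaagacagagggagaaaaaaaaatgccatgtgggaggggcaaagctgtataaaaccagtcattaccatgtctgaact
SPRR1B: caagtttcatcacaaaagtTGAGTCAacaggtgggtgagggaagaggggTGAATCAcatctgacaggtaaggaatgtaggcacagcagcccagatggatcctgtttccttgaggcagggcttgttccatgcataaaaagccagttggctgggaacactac

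IL1A, the alarmin stored in keratinocytes, went from 27.4 and 22.6 CPM in siControl to 146 and 139 CPM in siZBED2-1 (5.69-fold, log2 fold change 2.51, SE 0.20, adjusted p = 2.52e-10). IL1B went from 34.8 and 30.9 to 68.0 and 69.0 CPM (1.06, adjusted p = 0.000519), and IL24, a cytokine of the IL10 family, from 2.08 and 3.39 to 31.6 and 21.5 CPM (3.27, adjusted p = 6.07e-06). Both siZBED2-1 libraries lay above both controls on these genes, as for every gene called higher. The libraries of a group were farther apart for IL24 than for IL1A and IL1B. Of the 28 NF-kB targets, chemokines and cytokines tested, 5 were called higher and 2 lower, with a median of 0.07 (-0.09 without siZBED2-1 replicate 1, 0.21 without siZBED2-1 replicate 2 and 0.13 without siControl replicate 2). SOD2, the mitochondrial superoxide dismutase, rose (1.12, adjusted p = 0.000787) as did TNFAIP3, the A20 brake on NF-kB (0.69, adjusted p = 0.00167). CXCL1, a neutrophil chemokine, fell from 263 and 273 to 170 and 138 CPM (-0.80, adjusted p = 0.000271). TNFAIP2, named after its values were seen, fell as well (-0.75, adjusted p = 0.00385), so the list did not move one way. Without siControl replicate 2 or siZBED2-1 replicate 1 CXCL1 was the 1 member called lower.

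Of 11 tested genes in a list of EGFR ligands and receptors, 4 were called higher and 0 lower (median 0.45). The list also holds MET, a receptor outside the EGFR family. HBEGF, a membrane-bound EGFR ligand, doubled from 47.2 and 40.9 to 101 and 102 CPM (1.21, adjusted p = 8.21e-05). MET, EGFR and NRG1 rose less (0.57, 0.53 and 0.72), and these 3 calls depended on the libraries: without siControl replicate 2 HBEGF alone was called, the highest adjusted p over the fits with 1 library left out being 0.135 for MET, 0.192 for EGFR and 0.438 for NRG1. MET and EGFR also lost their call without siZBED2-1 replicate 1, and NRG1 without siControl replicate 1 or siZBED2-1 replicate 2.

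Interferon-regulated genes did not move as a group. Of 64 interferon response genes tested, 3 were called higher and 3 lower, and 25 lay above 0 and 39 below. The called share was 9.38%, beside 4.65% of all genes tested and 10.1% of the highest tertile by mean level. The median log2 fold change was -0.08, and it became 0.15 without siControl replicate 2 and 0.06 without siZBED2-1 replicate 1. The summed level was 6380 and 6940 CPM in siControl and 6050 and 6950 CPM in siZBED2-1. With the experiment batch as a replicate block 10 genes were called, 6 higher and 4 lower, and without siZBED2-1 replicate 2 there were 2.

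STAT2, the interferon signal transducer at chr12:56341597-56360107 that the study followed, was higher after siZBED2-1. It had 112 and 91 counts in siControl and 207 and 230 in siZBED2-1, or 21.2 and 18.2 CPM against 41.4 and 42.2 CPM. Each siZBED2-1 library lay at about double each control (2.12-fold, log2 fold change 1.09, SE 0.22, adjusted p = 0.00161), and the call held whichever library was left out. IRF1 and IRF9, which act beside STAT2, were not called: IRF1 had 233 and 214 against 190 and 215 CPM (-0.14, SE 0.14, adjusted p = 0.707) and IRF9, with 16 to 38 counts a library, 3.02 and 5.39 against 3.80 and 6.97 CPM (0.36, SE 0.60, adjusted p = 0.852). CD274 had 18 and 28 counts in siControl and 51 and 27 in siZBED2-1. One siZBED2-1 library was thus high and the other within the control range (0.75, SE 0.48, adjusted p = 0.494).

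Of the 21 interferon receptors, kinases, STAT and IRF factors tested, 3 were called higher and 0 lower, SOCS3 and STAT2 in each fit with 1 library left out. SOCS3, the cytokine-induced inhibitor of JAK signaling, rose from 16.2 and 16.8 to 45 and 48.6 CPM (1.5, SE 0.25, adjusted p = 0.000198).

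Among the interferon targets, IFIT3, which restricts viral RNA with its IFIT partners, fell most clearly, from 542 and 645 to 295 and 321 CPM (log2 fold change -0.95, SE 0.14, adjusted p = 4.33e-05). GBP4, a guanylate-binding protein, fell from 72.9 and 71.7 to 36.2 and 32.5 CPM (-1.07, adjusted p = 0.00315; 0.0597 without siZBED2-1 replicate 2). ISG15, the ubiquitin-like modifier, had 304 and 321 CPM in siControl and 169 and 244 CPM in siZBED2-1 (-0.60, adjusted p = 0.0209). IFI16, a DNA sensor, rose from 294 and 337 to 452 and 462 CPM (0.53, adjusted p = 0.0116), GBP1 from 163 and 134 to 210 and 219 CPM (0.53, adjusted p = 0.017) and OAS2, a double-stranded RNA sensor, from 24.4 and 36.5 to 44.2 and 69.5 CPM (0.91, adjusted p = 0.0207). IFIT3 alone of these 6 was called in every fit with 1 library left out. IFI16 and OAS2 lost their call without siControl replicate 1 or siZBED2-1 replicate 2 (highest adjusted p = 0.133 and 0.422), ISG15 without siControl replicate 2 or siZBED2-1 replicate 1 (0.402), and GBP1 in all of these fits but the one without siControl replicate 1 (0.264). IFIT1 (45.9 and 62.5 against 48.2 and 75.1 CPM) and MX1 (55.0 and 78.7 against 50.4 and 93.8 CPM), 2 standard antiviral genes named after their values were seen, overlapped between the groups.

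These promoters are printed to show the letters in interferon targets and in STAT2. The letters do not part the genes by direction: GBP1, called higher, has 2 matches in its promoter and ISG15 and IFIT3, called lower, have 3 and 2. The letters searched were GAAANNGAA, the core of the ISRE, on both strands, and capitals mark them. In ISG15 the 3 matches overlap and run together, and in IFIT3 both lie on the opposite strand, where the letters appear as their reverse complement. In STAT2 these letters occur neither in the stretch shown nor in the 300 bases around the start, which says nothing of whether a factor binds there. The stretches are the 160 bases before the RefSeq start in GRCh38.p14: chr1:1013337-1013496 (plus strand) for ISG15, chr10:89327837-89327996 (plus) for IFIT3 and chr12:56360108-56360267 (minus) for STAT2.
ISG15: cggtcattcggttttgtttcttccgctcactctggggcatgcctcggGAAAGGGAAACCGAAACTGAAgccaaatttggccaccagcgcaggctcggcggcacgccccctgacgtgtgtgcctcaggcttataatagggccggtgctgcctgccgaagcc
IFIT3: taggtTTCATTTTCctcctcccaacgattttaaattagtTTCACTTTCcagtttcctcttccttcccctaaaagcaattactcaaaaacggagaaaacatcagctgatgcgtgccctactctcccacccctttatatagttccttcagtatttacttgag
STAT2: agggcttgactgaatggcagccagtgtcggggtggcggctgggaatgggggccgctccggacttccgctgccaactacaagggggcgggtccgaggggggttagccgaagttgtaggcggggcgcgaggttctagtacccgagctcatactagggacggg

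MHC class I, the sensors and the checkpoint ligands gave little. The shares called were 5.88, 6.25 and 8.33%, beside 4.65% of all genes tested. Of 17 antigen presentation genes tested, the chaperone CALR was the one called (1120 and 1200 against 1510 and 1620 CPM, log2 fold change 0.43, adjusted p = 0.00535), a call lost without siControl replicate 1 or siZBED2-1 replicate 2 (highest adjusted p = 0.0818). The chaperone CANX had 910 and 876 against 1020 and 1030 CPM (0.20, adjusted p = 0.319). Of 16 RNA and DNA sensing genes IFI16 was the one called, while the RNA editor ADAR had 239 and 200 against 187 and 166 CPM (-0.31, adjusted p = 0.234). Of 12 checkpoint and adhesion ligands tested, CD47, the signal against phagocytosis, was the one called (249 and 292 against 348 and 414 CPM, 0.49, adjusted p = 0.0413; highest adjusted p = 0.38 without siControl replicate 1 or siZBED2-1 replicate 2), and PVR lay level at 118 and 130 against 126 and 125 CPM.

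Calls among mitotic and replication genes were downward only. Of 44 mitotic genes tested 14 were called lower and 0 higher (median log2 fold change -0.50, 39 below 0), and of 37 replication licensing and S-phase genes 15 were called lower and 0 higher (median -0.61, all 37 below 0). The summed mitotic level went from 8190 and 7560 to 5500 and 5210 CPM, and the summed replication level from 4030 and 4060 to 2760 and 2640 CPM. Both siZBED2-1 libraries were thus lower than both controls for each sum. Single replication genes were less secure than their sum: without siControl replicate 1, siControl replicate 2, siZBED2-1 replicate 1 or siZBED2-1 replicate 2, the calls in that list numbered 7, 4, 6 and 0, with medians of -0.59, -0.47, -0.61 and -0.53. The mitotic calls numbered 11, 9, 11 and 6 in the same fits, and 6 of them held in all.

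Of the mitotic genes, CKS1B, a subunit of cyclin-dependent kinases, went from 304 and 290 to 140 and 150 CPM (log2 fold change -1.03, SE 0.13, adjusted p = 1.95e-06). HMMR, a spindle protein, went from 98.4 and 90.2 to 38.8 and 43.3 CPM (-1.20, adjusted p = 8.14e-05), and ANLN, the contractile ring scaffold, from 500 and 501 to 287 and 259 CPM (-0.88, adjusted p = 8.9e-06). For all 3 both siZBED2-1 libraries lay below both controls, as for every gene called lower. TOP2A, which untangles sister chromatids, fell from 1420 and 1270 to 855 and 840 CPM (-0.67, adjusted p = 0.000323), and UBE2C and CDCA8 fell by 0.82 and 0.83. In replication, MCM2, a helicase subunit, fell from 152 and 168 to 112 and 72.3 CPM (-0.80, adjusted p = 0.00325; 0.241 without siZBED2-1 replicate 2), and MCM4 from 539 and 456 to 343 and 297 CPM (-0.64, adjusted p = 0.00247; highest adjusted p = 0.099, lost without siControl replicate 1 or siZBED2-1 replicate 2). TYMS, thymidylate synthase, had 94.4 and 128 against 69.4 and 47.2 CPM (-0.93, adjusted p = 0.0106; highest adjusted p = 0.271, lost without siControl replicate 2 or siZBED2-1 replicate 2).

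Among the G1 genes, CDKN1A (p21), the inhibitor that halts cells in G1, rose from 64.4 and 57.9 to 121 and 151 CPM (log2 fold change 1.16, SE 0.15, adjusted p = 4.55e-06), and this held whichever library was left out. CDKN1A was the one gene called higher among 25 G1 genes. Its part in the falls above was not tested. TFDP1, the dimer partner of E2F, was called lower (118 and 126 against 63.2 and 74.7 CPM, -0.82, adjusted p = 0.00587) but not without siControl replicate 2 or siZBED2-1 replicate 1 (highest adjusted p = 0.129), and CCNE2 and CCND3 (-1.36 and -0.73) were called in none of the fits with 1 library left out. Of 24 p53 targets 4 were called higher and 1 lower, with a median of 0.12 (0.14 to 0.22, with 3 or 2 higher and 0 lower with 1 library left out). SESN2, a stress sensor that p53 and ATF4 share, rose from 38.9 and 35.7 to 70.2 and 75.1 CPM (0.96, adjusted p = 0.00242), and GDF15, a stress cytokine, went from 5.85 and 10.6 to 23.4 and 40.7 CPM (1.97, adjusted p = 0.00275; highest adjusted p = 0.132, lost without siControl replicate 1 or siZBED2-1 replicate 2). Of 34 DNA repair genes 3 were lower (1 without siZBED2-1 replicate 2), BARD1 clearly (61.8 and 59.7 against 22.0 and 22.8 CPM, -1.44, adjusted p = 7.25e-05) and its partner BRCA1 less so (-0.77, adjusted p = 0.017; highest adjusted p = 0.179, lost in all such fits but that without siControl replicate 2). FANCD2 (-0.82, adjusted p = 0.0106, and -0.66 to -0.94 with 1 library left out) was lost without siControl replicate 1 or siZBED2-1 replicate 2. The 3 repair calls were 8.82% of the list, beside 4.65% of all genes tested and 10.1% of the highest tertile by mean level.

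The TYMS promoter is shown for its match to the E2F letters, the element of S-phase genes. The letters were TTTCGCGC, TTTGGCGC and TTTCCCGC on both strands; capitals mark the match, which lies on the opposite strand. The stretch is chr18:657493-657652 (GRCh38.p14, plus strand), the 160 bases before the RefSeq start. The promoters of CKS1B, ANLN, HMMR, TOP2A, CDCA8 and BARD1, also called lower, hold 0 matches in the 300 bases around the start. Those of MCM2, FANCD2 and TFDP1 hold 2, 1 and 1. E2F letters stood in 8.66% of the promoters of genes called lower. A match is a description of the letters, not a site shown to be bound.
TYMS: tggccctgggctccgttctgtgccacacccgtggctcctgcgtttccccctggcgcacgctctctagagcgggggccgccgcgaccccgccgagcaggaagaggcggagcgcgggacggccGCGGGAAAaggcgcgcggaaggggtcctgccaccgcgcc

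**Figure D3:**
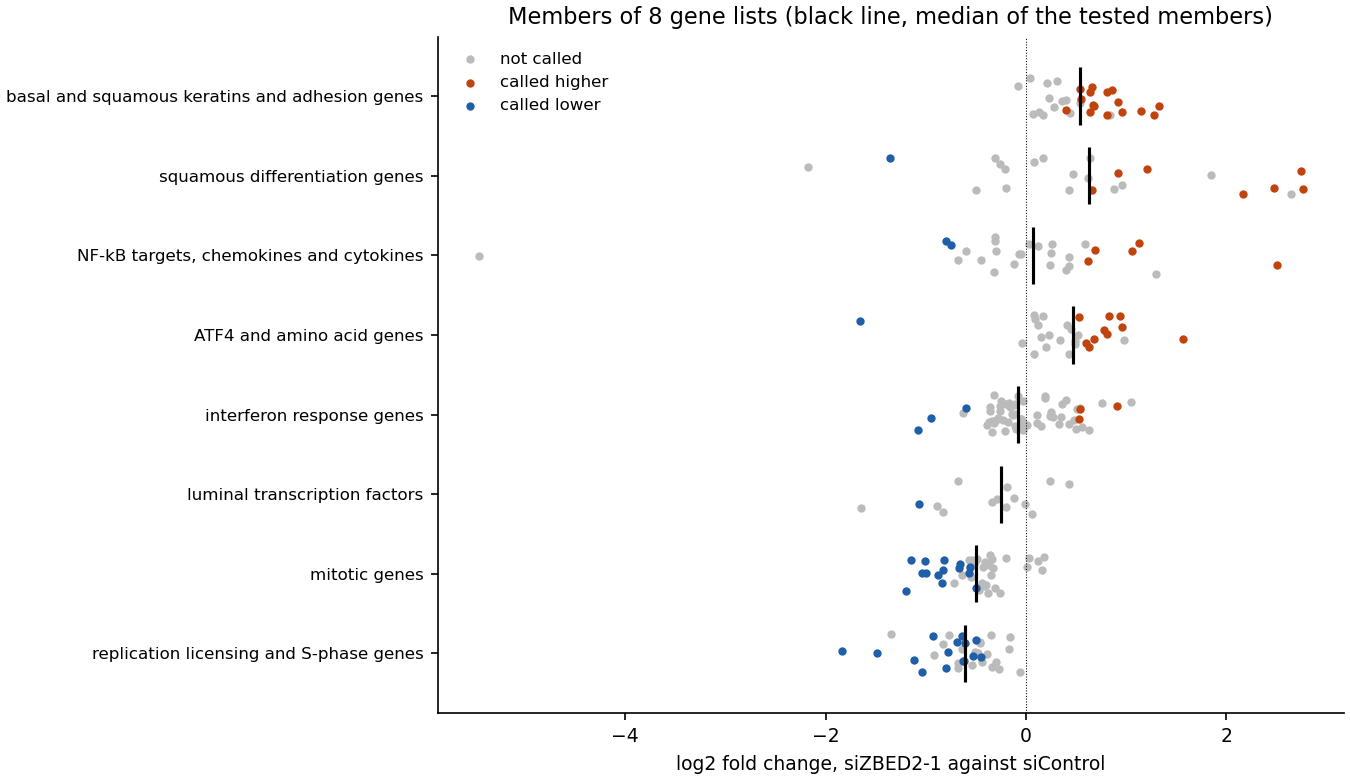
Each point is a tested member of 1 of 8 gene lists, placed by its log2 fold change in siZBED2-1 against siControl (x); orange and blue points were called higher and lower, grey points were not called, and black lines are list medians. The keratin and adhesion members lie almost wholly right of 0 (median 0.54), the mitotic and replication members left of it (-0.50 and -0.61), and the interferon members on both sides (-0.08).

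The shares called among TFs of basal and luminal identity were 10.3 and 7.14%, beside 4.65% of all genes tested. Of 29 basal TFs tested, HMGA2 and JUNB were called higher and ZBED2 lower, with a median log2 fold change of 0.09 (-0.06 without siZBED2-1 replicate 1). HMGA2, an architectural chromatin protein, more than doubled, from 350 and 327 to 798 and 734 CPM (1.18, SE 0.12, adjusted p = 4.29e-08). JUNB, an AP-1 subunit, had 102 and 107 against 142 and 151 CPM (0.49, adjusted p = 0.0391) and was called in none of the fits with 1 library left out. KLF5 had 141 and 136 against 148 and 179 CPM (0.24, adjusted p = 0.549). Of 14 luminal TFs RXRA, the partner of PPARG, was called lower (111 and 114 against 39.4 and 67.5 CPM, -1.07, adjusted p = 0.000409; 0.0603 without siZBED2-1 replicate 1). Of the luminal TFs 3 lay above 0 and 11 below, with a median of -0.25 (-0.07 without siZBED2-1 replicate 1 and -0.48 without siZBED2-1 replicate 2). PPARG (29.7 and 27.7 against 18.4 and 12.7 CPM, -0.89, adjusted p = 0.148) and GATA3 (12.8 and 11.6 against 6.80 and 6.97 CPM, -0.82, adjusted p = 0.346), named after their values were seen, lay below their controls without passing the test. TFAP2A (130 and 131 against 185 and 168 CPM, 0.43, adjusted p = 0.0916) was called with the replicate block (adjusted p = 0.0497). Of 10 luminal and umbrella-cell markers tested 0 were called (median 0.14), with KRT18 at 756 and 743 against 759 and 759 CPM.

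Junctions, matrix and proteases showed a few large changes. CLDN1, the barrier claudin, rose from 121 and 141 to 429 and 420 CPM (3.23-fold, log2 fold change 1.69, SE 0.14, adjusted p = 4.88e-10), and the polarity protein PARD6B from 24.6 and 21.8 to 53 and 54.5 CPM (1.21, adjusted p = 0.000529). They were the 2 called of 17 tight junction genes, and 0 were lower. That is 11.8% called, beside 4.65% of all genes tested and 10.1% of the highest tertile by mean level. Of 30 collagens, laminins and integrins 8 were called higher and 0 lower (median 0.19; 0.31 without siZBED2-1 replicate 2), 5 of them in each fit with 1 library left out (5 calls in all without siControl replicate 1). ITGA2, a collagen receptor, was one of these and rose from 286 and 238 to 462 and 461 CPM (0.82, adjusted p = 4.7e-05). Of 31 matrix proteases and plasminogen genes 4 were called higher and 1 lower, and without siZBED2-1 replicate 2 there were 2 and 1. CTSB, a lysosomal cathepsin, rose from 308 and 333 to 564 and 621 CPM (0.89, adjusted p = 1.24e-05) and ADAM8 from 211 and 218 to 349 and 310 CPM (0.62, adjusted p = 0.00124), while the collagenase MMP13 fell from 66.5 and 103 to 11.8 and 13.8 CPM (6.60-fold, -2.72, SE 0.33, adjusted p = 9.53e-07). The related MMP1 (114 and 186 against 254 and 404 CPM, 1.13, adjusted p = 0.0146) and MMP3 (12.7 and 8.58 against 30.6 and 32.1 CPM, 1.56, adjusted p = 0.0111) were called higher, MMP1 not without siControl replicate 1 or siZBED2-1 replicate 2 (highest adjusted p = 0.286) and MMP3 not without siControl replicate 2 or siZBED2-1 replicate 2 (0.145). Of 19 epithelial-mesenchymal markers LGALS1 (956 and 865 against 420 and 469 CPM, -1.03, adjusted p = 5.63e-07) and N-cadherin, CDH2 (58.5 and 56.3 against 29.8 and 26.6 CPM, -1.03, adjusted p = 0.00848; 0.128 without siZBED2-1 replicate 2), were called lower. CD44, the hyaluronan receptor, was called higher (0.40, adjusted p = 0.0277), but in none of the fits with 1 library left out.

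Of 28 amino acid genes of the ATF4 response 10 were called higher and 1 lower, 5 of these 11 in every fit with 1 library left out (median 0.47, 26 above 0). CHAC1, which degrades glutathione, went from 12.3 and 14.6 to 37.4 and 42.2 CPM (1.57, adjusted p = 0.000625), SHMT2, the mitochondrial serine enzyme, from 93.7 and 97.8 to 159 and 181 CPM (0.83, adjusted p = 0.00092) and the glutamine carrier SLC1A5 from 119 and 142 to 219 and 238 CPM (0.81, adjusted p = 0.00288). CTH, which makes cysteine, was the exception and fell from 46.5 and 40.5 to 17.8 and 9.91 CPM (-1.65, adjusted p = 0.00047). Without siZBED2-1 replicate 1 the list had 7 calls, 6 higher and 1 lower. ADM2, a peptide hormone of the calcitonin family, had the largest named rise, from 6 and 2 counts to 72 and 42 (3.80, SE 0.91, adjusted p = 0.00706), a call lost without siControl replicate 2 or siZBED2-1 replicate 1 (highest adjusted p = 0.0835).

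Of 30 cholesterol and fatty acid genes 5 were called lower and 0 higher (median -0.32; -0.19 without siControl replicate 2 and -0.15 without siZBED2-1 replicate 1), and 8 lower with the replicate block. ACLY, which makes cytosolic acetyl-CoA, fell from 213 and 199 to 73.6 and 81.3 CPM (-1.41, SE 0.14, adjusted p = 1.17e-08) and was the one call left without siControl replicate 2; without siZBED2-1 replicate 1 there were 2. ME1, the malic enzyme that feeds NADPH to lipid synthesis, fell by 1.05 (adjusted p = 0.00045). In glycolysis and hypoxia 4 of 27 genes were called higher and 2 lower (median 0.44; 0.19 without siControl replicate 1, 0.32 without siControl replicate 2, 0.29 and 0.28 without siZBED2-1 replicate 1 or 2), and without siControl replicate 2 there were 3 and 0. NDRG1, a hypoxia marker also tied to differentiation, went from 118 and 131 to 275 and 277 CPM (1.15, adjusted p = 1.09e-06), and LDHA from 363 and 372 to 616 and 612 CPM (0.74, adjusted p = 0.000214). PGAM1 was called lower (-2.16, adjusted p = 0.00735) but not without siControl replicate 2 or siZBED2-1 replicate 2 (highest adjusted p = 0.338). LDHA and PGAM1 have many processed pseudogenes, so their counts are uncertain. TXNIP, the thioredoxin inhibitor that tracks glucose, rose from 57.2 and 59.5 to 214 and 165 CPM (1.70, SE 0.17, adjusted p = 1.89e-08).

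Most genes that fell with the smallest p-values belong to none of the lists. TMEM14B, a small membrane protein at chr6:10747759-10759774, had 632 and 672 counts in siControl and 64 and 131 in siZBED2-1, or 119 and 134 against 12.8 and 24.0 CPM (6.84-fold lower, log2 fold change -2.77, SE 0.21, adjusted p = 1.11e-10). Its fall was larger than that of ZBED2 in this fit, though the 2 changes were not tested against each other. RHOBTB3, an atypical GTPase, went from 580 and 489 to 187 and 151 CPM (-1.66, SE 0.13, adjusted p = 1.3e-10), RAB12, a vesicle GTPase, from 112 and 101 to 22.0 and 20.2 CPM (-2.33, SE 0.20, adjusted p = 9.39e-10) and YWHAH, a 14-3-3 protein, from 109 and 99.0 to 27 and 24.4 CPM (-2.02, SE 0.18, adjusted p = 4.48e-09). In each the groups lay far apart. The libraries of a group lay close together for RHOBTB3, RAB12 and YWHAH, but the siZBED2-1 libraries of TMEM14B did not. HDGF, a growth factor that binds chromatin, fell from 1250 and 1240 to 558 and 642 CPM (-1.06, adjusted p = 2.87e-08). UBAC1, SNX3, TCEA1, MAP7D1 and RBM3 fell by 1.19 to 1.78, and all of them kept their call whichever library was left out. The steepest fall named was that of the diacylglycerol kinase DGKQ, from 63 and 66 counts to 4 and 5 (-3.83, SE 0.64, adjusted p = 5.07e-05). HDDC2 fell from 26.1 and 32.9 to 6.20 and 5.32 CPM (-2.35, adjusted p = 6.8e-06). The siRNA sequence was not used here, and a match of these transcripts to its seed was not tested.

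Genes that rose outside the lists were YBX3, a cold-shock domain protein of junctions and mRNA (291 and 285 against 710 and 614 CPM, log2 fold change 1.20, adjusted p = 3.53e-08), DDAH1, which clears methylated arginine (35.5 and 31.9 against 107 and 116 CPM, 1.72, adjusted p = 4.09e-08), and the proton pump subunit ATP6V1D (96.9 and 110 against 227 and 217 CPM, 1.11, adjusted p = 6.41e-07). RPLP0, often taken as a reference gene, went from 998 and 1070 to 1770 and 1800 CPM (0.79, SE 0.09, adjusted p = 6.65e-07). Of the 78 cytosolic ribosomal protein genes tested it was the one called higher and RPS4X the one lower, and the median was 0.02. Both have processed pseudogenes, and the call of RPS4X held without siControl replicate 1 but not without any of the other 3 libraries (highest adjusted p = 0.108).

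**Figure D4:**
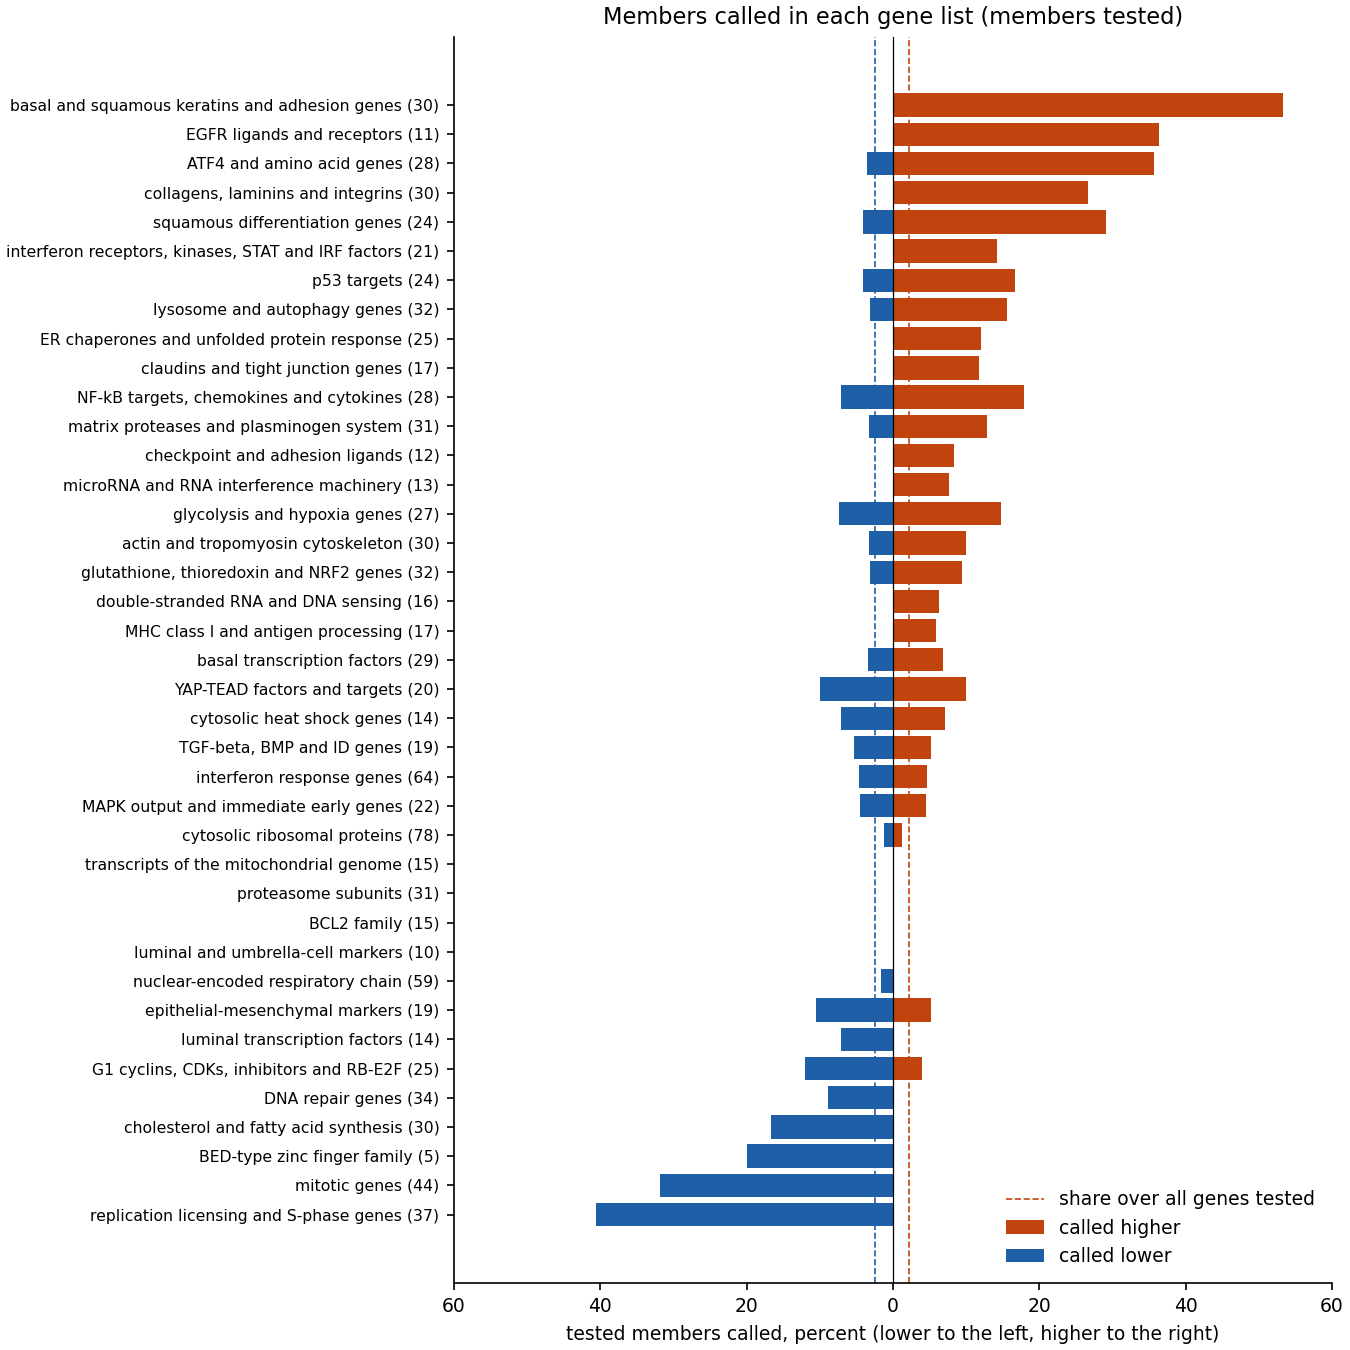
Bars give, for each gene list (number of members tested in parentheses), the percent of tested members called higher (orange, right) and lower (blue, left) in siZBED2-1 against siControl; dashed lines mark the shares over all genes tested, 2.19% and 2.45%. The keratin and adhesion list reaches farthest to the right (16 of 30 called higher), and the replication list farthest to the left (15 of 37 called lower).

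Called genes were also described by the letters in their promoters, taken as the 300 bases around the start in RefSeq, which matched 9417 of the genes tested, 212 of those called higher and 254 of those called lower. AP-1 letters stood in 9.91% of the promoters of genes called higher, in 5.12% of those called lower and in 4.78% of all. E2F letters stood in 1.89% of the higher, 8.66% of the lower and 4.65% of all. The ISRE core stood in 6.13, 7.87 and 6.50%, which are close to each other. The TEAD letters GGAATG stood in 13.7, 11.8 and 11.0%, and the forkhead letters TGTTTAC in 4.25, 4.33 and 2.27%. None of these shares was tested, and they rest on 4 to 30 promoters of called genes each.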

How the data were processed

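The authors prepared QuantSeq FWD 3' mRNA libraries and deposited whole-number counts per gene and TPM values for all 24 libraries. Per the file headers and the submitters' processing notes, reads were trimmed with TrimGalore 0.6.2 (minimum quality 20, minimum length 10) and aligned with STAR 2.6.1a to hg38 with GENCODE 29; the paper's methods name another build, and the files' own settings were followed. Length scaling in the deposited TPM does not suit 3' reads, so counts were the main measure. Counts were tested with edgeR 4.0.16 (limma 3.58.1, R 4.3.3): TMM, filterByExpr by group (minimum count 10, minimum total 15), a quasi-likelihood fit of the 12 SCaBER libraries with a mean per group, 8 of them for the spread alone, and Benjamini-Hochberg adjustment, with a call at an adjusted p under 0.05. The spread corresponded to a biological coefficient of variation of 21.6%. Floors (3 counts) cover counting error only, since no molecular identifiers were used, while intervals of a fold change include the spread between libraries. A permutation test of 2 against 2 libraries cannot go below p = 0.333 and was not used. Replicates of a group differed by more than sampling noise (chi-square per gene 7.19 and 6.6), and groups by more (13.8 to 16.1). The labels call replicate numbers experiment batches, which pairs the samples. Over 13129 genes the replicate differences of the groups correlated at r = 0.0012, which does not settle the pairing of single genes. The main fit and the fits with 1 library left out did not use this pairing. With a replicate block in the edgeR test, adjusted p was 2.14e-07 for MMP1, 0.000124 for ISG15 and 0.000281 for OAS2. Without the block it was 0.0146, 0.0209 and 0.0207. For CD274 it was 0.501 with the block and 0.494 without. MMP1, ISG15 and OAS2 lost their call with DESeq2 and with limma on log2(TPM + 1), neither of which used the pairing.

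The genes named were ZBED2, FOXA1, STAT2, CD274, IRF1 and IRF9; the 12 called genes of smallest p in each direction; the 8 of largest fold in each direction with at least 10 CPM; and up to 6 called members of each list, or the 2 most abundant where fewer than 2 were called. Some genes that this rule takes are not reported here. Members and lists were chosen with earlier results of these data known. Gene positions and promoters are from RefSeq GRCh38.p14, which matched 11765 of the symbols tested. Alternatives were RLE factors, library size only, no low-count filter, DESeq2 1.42.0, the 4 libraries alone, a replicate block, each library left out, limma on log2(TPM + 1), and stricter thresholds. On simulated counts for this comparison (12609 genes), 76.3% of 4-fold and 34.4% of 2-fold changes were recovered, with 5 false calls among 112.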

Additional observations from a re-analysis of the deposited data

How the results depend on the processing

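No called gene that is named changed sign under any alternative; among those not called, IRF9 went from 0.36 to -0.13 without siZBED2-1 replicate 2, and ZBED4 and ZBED5 also changed sign with 1 library left out (-0.14 to 0.27 and -0.58 to 0.27). Calls numbered 610 with RLE factors, 623 by library size only, 646 without the low-count filter, 673 with DESeq2 (571 of the 610, with 27 given no adjusted p), 581 with the 4 libraries alone and 791 with the replicate block, which kept all 610. Leaving out 1 library gave 302 to 450 calls, 143 to 220 of them higher and 157 to 230 lower; the lone sample is then assumed to vary like the other groups. At an adjusted p under 0.01 there were 309 calls, and at 2-fold or more 223. With limma on log2(TPM + 1) there were 236 calls, 88 higher and 148 lower, so that 37.3% were higher against 47.2% on counts, and by library size only the share was 40.6%. With that limma fit the ZBED2 level stood at -1.97 (adjusted p = 0.0574) and the STAT2 log2 fold change at 0.98 (0.056), and the calls numbered 0 in the interferon list, 2 in replication, 8 in mitosis, 10 in keratins and adhesion, 4 in squamous differentiation and 3 in ATF4; the cause was not tested. Leaving out 1 library gave a ZBED2 change of -1.37 to -2.97, and list calls of 2 to 6 (interferon), 0 to 7 (replication), 6 to 11 (mitosis) and 7 to 9 (ATF4). The replicate block raised the interferon calls to 10 and made TFAP2A a call, and no other named gene changed its call. Of 137 named calls, 77 held whichever library was left out. At this depth few genes of low abundance could be called.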

Other observations

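Of 32 lysosome and autophagy genes 5 were called higher and 1 lower (median log2 fold change 0.18, summed level 4110 and 4130 CPM in siControl, 5000 and 5390 CPM in siZBED2-1). RAB7A, the GTPase of late endosomes, went from 146 and 140 to 246 and 249 CPM (0.79, adjusted p = 0.000122), and the cholesterol carrier NPC2 was the one lower (-0.71, adjusted p = 0.0038; 0.068 without siZBED2-1 replicate 2). Without siControl replicate 2 the list had 3 calls. Of 32 glutathione, thioredoxin and NRF2 genes 3 were called higher and 1 lower: the ferritin chain FTL, which has many pseudogenes, went from 587 and 565 to 1020 and 1010 CPM (0.82, adjusted p = 4.75e-06) and the peroxidase PRDX1 from 529 and 525 to 794 and 770 CPM (0.57, adjusted p = 0.0009), while FTH1, named after its values were seen, overlapped (2880 and 3240 against 2800 and 3530 CPM). Of 25 genes of the endoplasmic reticulum 3 were called higher, CALU in every fit with 1 library left out (140 and 155 against 327 and 304 CPM, 1.10, adjusted p = 2.54e-06). Of 30 cytoskeletal genes 3 were called higher and 1 lower (6 and 3 with the replicate block), and the tropomyosins parted, TPM3 rising (489 and 528 against 866 and 799 CPM, 0.71, adjusted p = 2.14e-05) and TPM2 falling (198 and 202 against 117 and 96.9 CPM, -0.91, adjusted p = 0.000149). The shares called in the lysosome, glutathione, endoplasmic reticulum and cytoskeletal lists were 18.8, 12.5, 12 and 13.3%. These stand beside 4.65% of all genes tested and 10.1% of the highest tertile by mean level. Of 19 TGF-beta, BMP and ID genes 1 was called higher and 1 lower, and 13 lay below 0 (median -0.14). That is 10.5% called, beside 4.65% of all genes tested and 10.1% of the highest tertile by mean level. INHBA, the activin A subunit, rose (108 and 83.6 against 199 and 210 CPM, 1.09, adjusted p = 6.8e-06), and the ligand TGFB2 was called lower (53.8 and 44.9 against 25.6 and 27.5 CPM, -0.89, adjusted p = 0.0163), the latter only in the fit without siControl replicate 2 when 1 library was left out (highest adjusted p = 0.176).

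Housekeeping complexes stayed near 0 as groups. Of 31 proteasome genes 0 were called (median 0.07; PSMA7 at 856 and 858 against 838 and 861 CPM), and of 15 mitochondrial transcripts 0 were called (median 0.12), as were 0 of 15 BCL2 family genes (median 0.13). Of 59 respiratory chain genes of the nucleus 1 was called, COX5B, which fell from 219 and 244 to 92.4 and 127 CPM (-1.08, adjusted p = 6.8e-06).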
